A study of Mus musculus with 12 samples.

Results

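The 31 genes described here make cholesterol, sense it, move it inside the cell or export it. They were listed by name, and where a gene had several probe sets the brightest on average across the 12 arrays was read, with no filter on intensity. Of the 31, 28 had a probe set that carried their symbol alone, out of 18193 genes measured in this way. No such probe set was found for Acat2, an early enzyme of the pathway, Soat1, which esterifies cholesterol, or Nr1h2, a liver X receptor (LXR), so these 3 have no value. The 28 comprised 18 synthesis enzymes, 4 sterol sensors, 3 transport proteins and 3 efflux genes; no lipoprotein receptor is on the list, and the receptors Scarb1 and Lrp1 are given with the other pathway genes below.

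Adipose tissue RNA came from C57Bl/6 mice in 3 groups of 4 arrays. Mice of the first group had eaten a high-fat diet (HFD) for 5 days and those of the second for 14 days, and the controls stayed on standard chow. Fat supplied 46% of the calories of the HFD and 13% of those of the chow. The HFD was started at 6 weeks of age. The fat depot is not named in the labels, nor is the age at which chow mice were sampled, so diet and age cannot be told apart. They call the arrays replicates without saying that each is a separate animal, so p-values measure the spread between these samples. Values are log2 signals of single-colour Affymetrix arrays, and their number limits the precision. A log2 difference of 1 is a doubling, and each difference from limma is followed by its standard error (SE).

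Cells make cholesterol from acetyl-CoA through mevalonate, squalene and lanosterol. The supply is set by sterol regulatory element-binding protein 2 (SREBP2, gene Srebf2): when membrane cholesterol is low, the escort protein Scap carries SREBP2 out of the endoplasmic reticulum to be cut and activated, and when it is high, the Insig proteins hold the complex back. Surplus cholesterol forms oxysterols, which activate the LXRs and with them the export pumps Abca1 and Abcg1. White fat holds a large part of the body's free cholesterol, much of it at the surface of the adipocyte lipid droplet.

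The 6 measured adipocyte markers averaged between 14.47 and 14.79 in every array, near the top of the scale. Several arrays also held transcripts of neighbouring organs. The mean of 6 epididymis and testis markers was 9.58 to 10.10 in 5-day arrays 1 to 3 and 10.78 in 14-day array 4, against 7.07 to 7.92 in the other 8 arrays, chow included; the epididymal inhibitor Spink8 was at 14.28 to 14.96 in those 4 HFD arrays and at 6.85 to 8.87 elsewhere, while Gpx5, Lcn8 and Rnase10 stayed between 6.45 and 8.52 throughout. Lcn5 was 8.44, 9.13 and 11.05 in 5-day arrays 1 to 3 and 14.54 in 14-day array 4. In chow array 3 it was 8.78, above 5-day array 1, and elsewhere 6.04 to 6.36. Below, arrays with Spink8 above 10 are called arrays with epididymal transcripts, and the rest arrays without them. Liver marker means were highest in 5-day array 4 (13.09), 14-day array 1 (12.74) and chow array 3 (12.11). Skeletal muscle markers stood at 12.57 in 5-day array 2 and 12.86 in chow array 3, and at 8.09 to 9.31 elsewhere. Smooth muscle marker means were 12.09 in 5-day array 1, 12.10 in 5-day array 2 and 13.71 in 14-day array 4, against 9.39 to 10.85 in the other 9 arrays. The endothelium marker mean was 11.65 in 5-day array 4 and 10.57 to 11.23 in the rest. The macrophage mean was 9.82 in 14-day array 4 and 10.65 to 11.31 in the rest, and 6 of 10 macrophage markers were lower at 14 days than on chow at an unadjusted p under 0.05. Mesothelium markers were lower in both HFD groups, with medians of −0.68 at 5 and at 14 days against chow, and 5 of 7 had an unadjusted p under 0.05 at each time. Of 5 preadipocyte and fibroblast markers 1 was lower at 5 days and 3 at 14 days at an unadjusted p under 0.05, with medians of −0.20 and −0.53. At this threshold 5.39% of all genes were lower at 5 days and 3.96% at 14 days. Dpt, of the preadipocyte and fibroblast markers, went the other way, at 13.56 to 13.92 in the 5-day arrays and 13.09 to 13.43 on chow. The lowest limma adjusted p among the macrophage, mesothelium, preadipocyte and fibroblast markers was 0.391. The 3′ to 5′ difference of the pyruvate carboxylase control was 2.83 in 5-day array 4, against 1.59 to 2.18 in the other 11 arrays. The part of these tissues and of RNA quality in the results was not tested beyond the values given beside them. In bulk tissue, fewer cells of a type and less RNA per cell cannot be told apart.

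Most synthesis enzymes averaged higher on HFD than on chow. At 5 days 17 of 18 were above chow, with a median log2 difference of 0.19, while 49.2% of all genes were above chow with a median of −0.002. At 14 days all 18 were above chow, with a median of 0.20, against 53.8% of all genes and a median of 0.01. The 2 comparisons share the chow arrays. In 6 of the 18, all 5-day arrays lay above all chow arrays, and over the 28 genes this held for 9 (32.1%), against 5.34% of all genes; 0 of the 28 lay wholly below chow (4.08% of all genes). At 14 days 0 of the 28 were wholly above or below chow, where 2% and 2.01% of all genes were. Averaged over the 18 enzymes, the 5-day arrays stood at 10.18, 10.11, 10.12 and 10.12, the 14-day arrays at 10.12, 9.83, 10.32 and 10.20, and the chow arrays at 9.93, 9.84, 9.88 and 9.77. The 5-day arrays lie close together above chow, whereas 14-day array 2 lies among the chow arrays.

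With 4 arrays against 4, limma called 0 of the 28 genes in each of the 3 comparisons at a Benjamini-Hochberg adjusted p under 0.05 over all genes; it also called 0% of all 18193 genes. At an unadjusted p under 0.05, 6 of the 28 were higher and 0 lower at 5 days against chow, where 4.24% of all genes were higher and 5.39% lower. At 14 days against chow 3 were higher and 0 lower (3.02% and 3.96% of all genes), and at 14 against 5 days 1 was higher and 0 lower (1.59% and 0.846%). The lowest adjusted p of any of the 28 was 0.391, for Insig1 at 5 days. The values of single genes therefore describe these arrays.

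Calls appeared when the spread of arrays was modelled otherwise. With limma array weights, which count divergent arrays less, 7 of the 28 were called at 5 days against chow, beside 10.1% of all genes: Tm7sf2, Npc2, Msmo1, Insig1, Fdps and Sqle as higher and Abcg1 as lower. At 14 days against chow the weights gave 7 (10.1% of all genes), all higher: Msmo1, Dhcr7, Sc5d, Insig1, Lss, Hmgcs1 and Idi1. Between 14 and 5 days they gave 5 (6.85%), with Abcg1, Insig2 and Sc5d higher and Npc2 and Tm7sf2 lower at 14 days. With the 5-day and chow arrays alone in the fit, Tm7sf2, Npc2 and Msmo1 were called (0.693% of all genes), and with all but 14-day array 4, Npc2 and Tm7sf2 (0.495%). Adjusted for the epididymis and testis marker mean, 0 of the 28 were called at 5 days (1.51%) and between 14 and 5 days (0.104%), with an adjusted p of 0.0538 for Insig1 at 5 days.

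**Figure D1:**
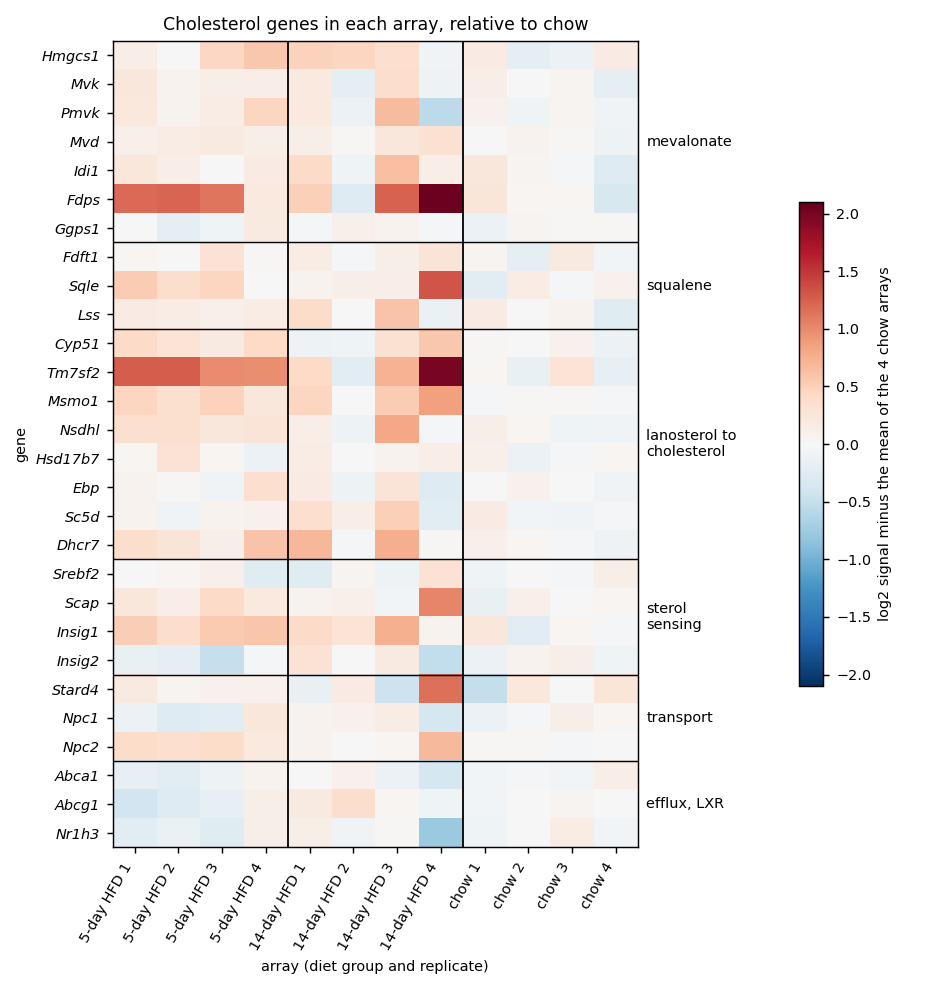
Log2 signal of the 28 measured genes (rows, grouped by role) in each of the 12 arrays (columns), minus the mean of the 4 chow arrays for that gene. Red is above and blue below chow; Fdps and Tm7sf2 are darkest in 14-day array 4 and also strong in 5-day arrays 1 to 3, and 14-day array 2 is pale for most enzymes.

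Insig1 gave the smallest p of the 28 at 5 days. Its mRNA is a target of SREBP2 while its protein restrains SREBP2. Signals were 11.10, 10.96, 11.13 and 11.17 in 5-day arrays 1 to 4, 10.98, 10.87, 11.32 and 10.66 in 14-day arrays 1 to 4 and 10.82, 10.34, 10.63 and 10.55 in chow arrays 1 to 4. All 5-day arrays were above every chow array, and among the 14-day arrays number 4 fell within the chow range. The group means were 11.09 ± 0.09, 10.96 ± 0.28 and 10.58 ± 0.20 (SD, n = 4 each) at 5 days, 14 days and on chow. The log2 difference from chow was 0.51 ± 0.13 at 5 days (limma adjusted p = 0.391) and 0.38 ± 0.13 at 14 days (adjusted p = 0.67). Insig1 was the highest of its group in 5-day array 4, which lacks epididymal transcripts. It was the lowest of its group in 14-day array 4, where epididymis markers are highest. Liver marker means were 13.09 in 5-day array 4 and 12.74, 9.48, 11.69 and 9.46 in 14-day arrays 1 to 4. Without the 4 HFD arrays that hold epididymal transcripts, the Insig1 difference was 0.58 at 5 days, from 1 array, and 0.48 at 14 days. With epididymis, liver and muscle marker means as covariates it was 0.55 and 0.35. The part of these tissues in the Insig1 difference was not tested.

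Promoters of Insig1, Msmo1 and Tm7sf2, which had low p values, and of Hmgcs1, a textbook SREBP target that did not separate from chow, are shown because SREBP works there beside the factors NF-Y and Sp1. Sequences are from RefSeq (GRCm38.p6), 250 bases up to the transcription start, with CCAAT (NF-Y), GGGCGG (Sp1), CACGTG (E-box) and TCACNCCAC (a core of the SREBP site) in capitals on either strand; the marked matches do not overlap.
Insig1 (chr5:28071162-28071411, plus strand): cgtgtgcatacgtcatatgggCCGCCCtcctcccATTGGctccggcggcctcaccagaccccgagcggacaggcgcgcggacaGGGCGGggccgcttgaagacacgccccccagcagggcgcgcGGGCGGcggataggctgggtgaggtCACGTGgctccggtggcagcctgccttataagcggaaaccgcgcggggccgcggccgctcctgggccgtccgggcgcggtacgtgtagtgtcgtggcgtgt
Hmgcs1 (chr13:119690101-119690350, plus strand): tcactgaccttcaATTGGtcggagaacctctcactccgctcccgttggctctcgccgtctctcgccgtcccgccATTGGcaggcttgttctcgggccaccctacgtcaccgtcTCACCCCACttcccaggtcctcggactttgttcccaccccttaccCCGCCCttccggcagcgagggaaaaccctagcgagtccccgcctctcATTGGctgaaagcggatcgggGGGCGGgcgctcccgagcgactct
Msmo1 (chr8:64733579-64733828, minus strand): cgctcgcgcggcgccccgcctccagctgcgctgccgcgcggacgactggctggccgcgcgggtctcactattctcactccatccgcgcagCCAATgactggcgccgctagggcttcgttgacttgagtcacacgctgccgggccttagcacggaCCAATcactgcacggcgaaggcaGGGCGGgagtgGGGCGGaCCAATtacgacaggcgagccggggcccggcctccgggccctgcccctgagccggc
Tm7sf2 (chr19:6067851-6068100, minus strand): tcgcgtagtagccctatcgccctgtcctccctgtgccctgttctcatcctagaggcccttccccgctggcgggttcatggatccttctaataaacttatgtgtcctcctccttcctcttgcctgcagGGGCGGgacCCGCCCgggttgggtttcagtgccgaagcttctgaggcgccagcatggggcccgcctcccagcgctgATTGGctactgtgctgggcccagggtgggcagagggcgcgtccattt
Only the Hmgcs1 sequence holds the SREBP core as spelled here, its first base at −137 from the start. Msmo1 and Hmgcs1 hold 3 CCAAT boxes each, and Insig1 and Tm7sf2 hold 1 each.

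RefSeq gave a promoter window, 250 bases before to 50 after a start, for 25 of the 31 genes and none for Fdps, Fdft1, Sqle, Stard4, Npc1 and Abcg1. CCAAT was found in 20 of the 25 (80.0%), against 41.1% of 27025 genes with a window, and GGGCGG in 21 (84.0%), against 38.2%. The E-box letters CACGTG were present in 6 of the 25 (24.0%, against 8.09%): Abca1, Dhcr7, Hsd17b7, Insig1, Sc5d and Scap. TCACNCCAC was found in 1 (4.0%, against 1.44%). A gene counts if any of its windows holds the letters. These matches are letters only and were not tested as binding sites.

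In the mevalonate branch, Hmgcs1, the synthase that makes HMG-CoA, had signals of 12.40, 12.25, 12.70 and 12.83 in 5-day arrays 1 to 4, 12.75, 12.72, 12.61 and 12.19 in 14-day arrays 1 to 4 and 12.43, 12.05, 12.14 and 12.43 in chow arrays 1 to 4. Both HFD groups overlap chow, whose arrays 1 and 4 reach 12.43. The differences were 0.28 ± 0.16 at 5 days and 0.31 ± 0.16 at 14 days. Its lowest HFD signals, in 5-day arrays 1 and 2 and 14-day array 4, came from arrays with epididymal transcripts; without the 4 HFD arrays that hold these the differences were 0.57 (1 array) and 0.43. The 4 brighter of its 5 probe sets lay between 0.26 and 0.45 at 5 days, and the fifth, near the floor of the array, at −0.022.

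Fdps makes farnesyl pyrophosphate, where the sterol and isoprenoid routes part. Its signals were 10.99, 11.02, 10.92 and 10.01 in 5-day arrays 1 to 4, 10.30, 9.52, 11.03 and 11.85 in 14-day arrays 1 to 4 and 10.05, 9.84, 9.83 and 9.47 in chow arrays 1 to 4. The 4 HFD arrays with epididymal transcripts read 10.92 or more, and so did 14-day array 3, which has none; 5-day array 4 and 14-day arrays 1 and 2 lay within or close to the chow range. The differences from chow, 0.94 ± 0.42 at 5 days and 0.88 ± 0.42 at 14 days, had wide errors. Adjusted for the mean of the epididymis and testis markers they were 0.26 and 0.58, and with liver and muscle marker means added −0.046 and 0.25.

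Mvd, which forms isopentenyl pyrophosphate, read 8.17, 8.22, 8.25 and 8.19 in 5-day arrays 1 to 4, 8.19, 8.09, 8.30 and 8.38 in 14-day arrays 1 to 4 and 8.06, 8.13, 8.08 and 7.96 in chow arrays 1 to 4. The 5-day arrays were all above chow, by 0.15 ± 0.068 on average, and 3 of 4 14-day arrays were above chow too, for 0.18 ± 0.068. Idi1, the isomerase of the next step, read 9.85, 9.75, 9.62 and 9.78 in 5-day arrays 1 to 4, 10.01, 9.53, 10.24 and 9.75 in 14-day arrays 1 to 4 and 9.86, 9.67, 9.60 and 9.34 in chow arrays 1 to 4. Its 14-day arrays 1 and 3 were above every chow array and the other two within the chow range, and the differences were 0.13 ± 0.15 and 0.27 ± 0.15 at 5 and 14 days, and 0.15 at 14 days without array 3. The kinases Mvk and Pmvk and the geranylgeranyl synthase Ggps1 had differences of 0.15 ± 0.12, 0.22 ± 0.20 and −0.026 ± 0.082 at 5 days and 0.065 ± 0.12, 0.052 ± 0.20 and 0.03 ± 0.082 at 14 days. Pmvk ranged from 9.57 to 10.79 within the 14-day arrays, wider than its range over the 5-day and chow arrays together.

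None of the 3 squalene-stage genes separated from chow at either time, although all 3 averaged above it. Sqle, the monooxygenase that limits flux after squalene, read 9.92, 9.76, 9.83 and 9.40 in 5-day arrays 1 to 4, 9.46, 9.51, 9.53 and 10.71 in 14-day arrays 1 to 4 and 9.17, 9.55, 9.35 and 9.48 in chow arrays 1 to 4. It was above chow in 5-day arrays 1 to 3 and at 10.71 in 14-day array 4, all arrays with epididymal transcripts, and within the chow range in every other HFD array. The differences were 0.34 ± 0.25 and 0.41 ± 0.25; without those 4 arrays they were 0.013 and 0.11, and adjusted for the epididymis and testis marker mean −0.11 and 0.21. The squalene synthase Fdft1 and the lanosterol synthase Lss differed from chow by 0.09 ± 0.10 and 0.15 ± 0.15 at 5 days and by 0.13 ± 0.10 and 0.21 ± 0.15 at 14 days; the 14-day difference of Lss was 0.077 without 14-day array 3. The 3 probe sets of Lss ran from −0.13 to 0.40 at 5 days.

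**Figure D2:**
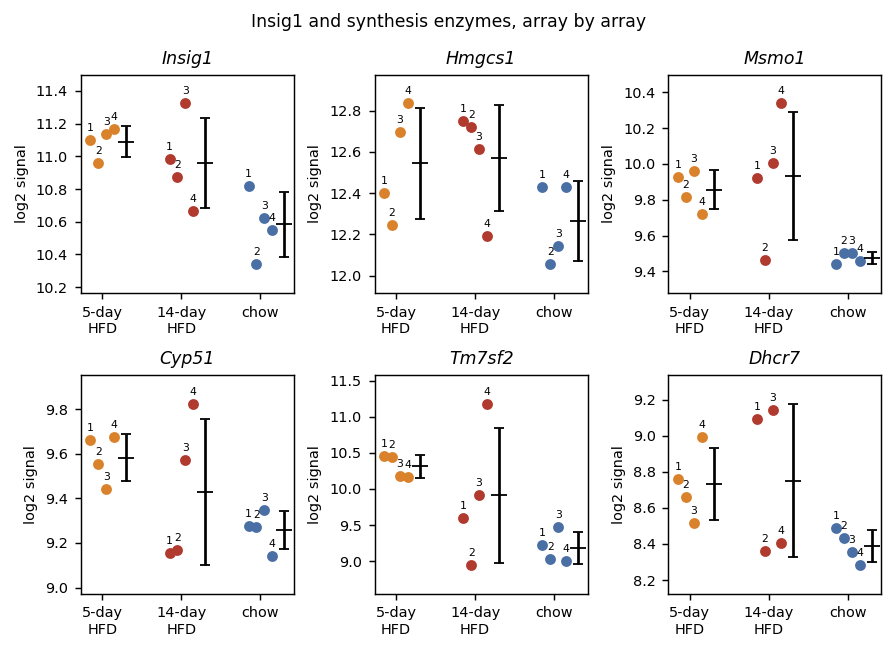
Log2 signal of Insig1 and 5 synthesis enzymes in 5-day HFD, 14-day HFD and chow arrays. Points are arrays, numbered by replicate, and the bar beside them is the mean ± SD (n = 4); the vertical axes do not start at 0. The 5-day points of Insig1, Msmo1, Cyp51, Tm7sf2 and Dhcr7 all lie above the chow points, and those of Hmgcs1 do not.

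The steps from lanosterol to cholesterol held most of the separated genes, 5 of 8 at 5 days. Tm7sf2, a sterol reductase that acts on the product of Cyp51, showed the widest difference, with 10.46, 10.45, 10.18 and 10.16 in 5-day arrays 1 to 4, 9.60, 8.95, 9.91 and 11.18 in 14-day arrays 1 to 4 and 9.22, 9.03, 9.48 and 9.004 in chow arrays 1 to 4. Every 5-day array was above every chow array, and 14-day array 4 was the highest of all 12 and 14-day array 2 the lowest. Its mean was 10.31 ± 0.16 at 5 days, 9.91 ± 0.94 at 14 days and 9.18 ± 0.22 on chow (SD, n = 4 each), a difference of 1.13 ± 0.36 (2.19-fold) and 0.73 ± 0.36 (1.66-fold). In 5-day array 4, without epididymal transcripts but with the highest liver and endothelium marker means, Tm7sf2 was at 10.16, 0.98 above the chow mean. In 14-day arrays 1 to 3 the difference was 0.30. With epididymis, liver and muscle marker means as covariates the differences of Tm7sf2 were 0.11 and 0.067. At 5 days limma called Tm7sf2 without 14-day array 4, an array outside that comparison (adjusted p = 0.0425).

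Msmo1, which oxidises the methyl groups at carbon 4, had the smallest p of the 28 at 14 days. Signals were 9.93, 9.82, 9.96 and 9.72 in 5-day arrays 1 to 4, 9.92, 9.47, 10.004 and 10.34 in 14-day arrays 1 to 4 and 9.44, 9.50, 9.51 and 9.46 in chow arrays 1 to 4. The chow arrays span less than 0.1 log2, all 5-day arrays lie above them, and so do 14-day arrays 1, 3 and 4 but not 2. The differences were 0.38 ± 0.14 at 5 days and 0.46 ± 0.14 at 14 days (limma adjusted p = 0.662). With epididymis, liver and muscle marker means as covariates they were −0.077 and 0.095.

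Cyp51, the lanosterol demethylase, read 9.66, 9.55, 9.44 and 9.67 in 5-day arrays 1 to 4, 9.15, 9.17, 9.57 and 9.82 in 14-day arrays 1 to 4 and 9.28, 9.27, 9.35 and 9.14 in chow arrays 1 to 4. It was above chow in all 5-day arrays (0.32 ± 0.14), and at 14 days arrays 3 and 4 were above and arrays 1 and 2 within the chow range (0.17 ± 0.14, and 0.039 without array 4). Dhcr7, a reductase of the final steps, read 8.76, 8.66, 8.52 and 8.99 in 5-day arrays 1 to 4, 9.09, 8.36, 9.15 and 8.41 in 14-day arrays 1 to 4 and 8.49, 8.43, 8.36 and 8.29 in chow arrays 1 to 4. All its 5-day arrays were above chow (0.34 ± 0.18), and its 14-day arrays fell into a high pair, 1 and 3, and a pair at chow level, 2 and 4 (0.36 ± 0.18). Liver marker means in the 14-day arrays were 12.74 and 11.69 in that high pair and 9.48 and 9.46 in the other. In 5-day array 4 the liver marker mean was 13.09, the highest of all arrays, and Dhcr7 was the highest of its group, 8.99. Chow array 3 had liver markers at 12.11 and Dhcr7 at 8.36. The part of liver transcripts in this pattern was not tested.

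Nsdhl, a dehydrogenase of the demethylation in which Msmo1 acts, was above chow in every 5-day array, by 0.29 ± 0.16 on average. It ranged from 11.04 to 11.15 at 5 days, 10.71 to 11.62 at 14 days and 10.72 to 10.92 on chow. Sc5d, the desaturase, read 11.53, 11.38, 11.53 and 11.56 in 5-day arrays 1 to 4, 11.82, 11.60, 11.96 and 11.22 in 14-day arrays 1 to 4 and 11.64, 11.40, 11.38 and 11.42 in chow arrays 1 to 4. It overlapped chow at both times, at 0.04 ± 0.13 and 0.19 ± 0.13; without 14-day array 3 or 4 the 14-day difference of Sc5d was 0.09 or 0.34. Hsd17b7 and Ebp, a ketoreductase and an isomerase, differed by 0.066 ± 0.09 and 0.091 ± 0.12 at 5 days and by 0.093 ± 0.09 and 0.019 ± 0.12 at 14 days. The 4 probe sets of Hsd17b7 ran from 0.00925 to 0.299 at 5 days and from 0.03975 to 0.385 at 14 days, with the second brightest the highest at both times. No lanosterol-stage enzyme averaged below chow at either time.

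**Figure D3:**
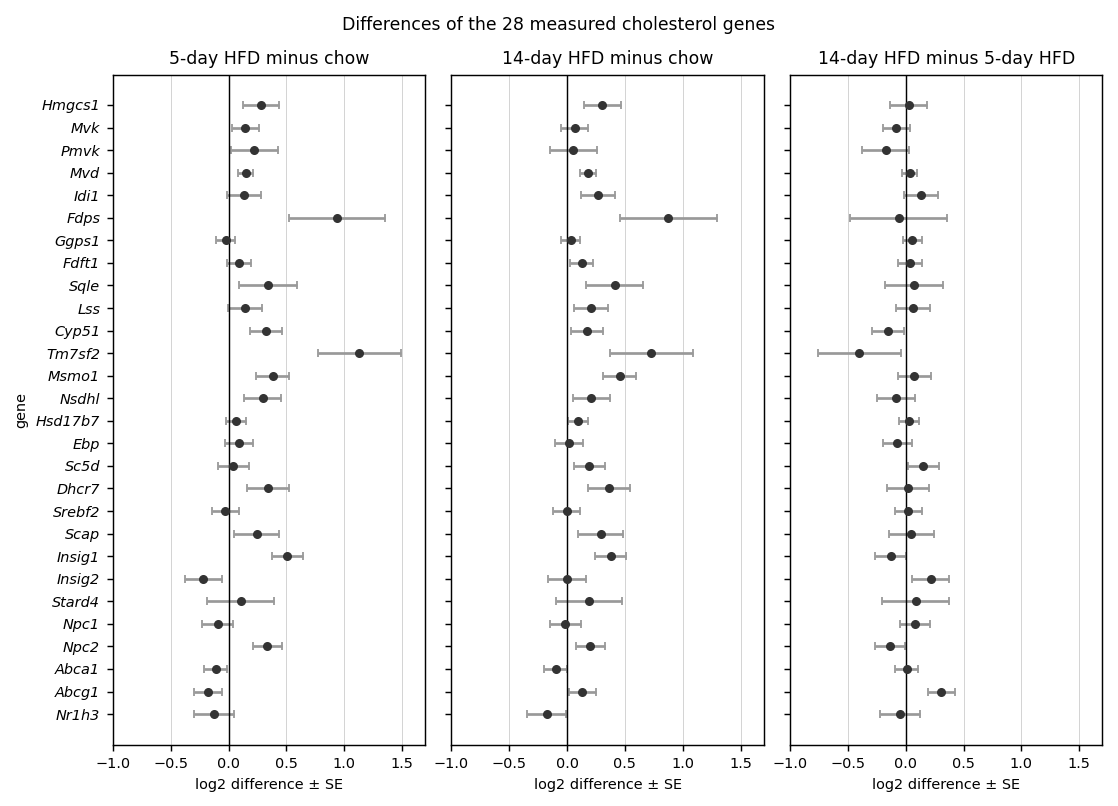
Log2 difference of each of the 28 genes with its SE (limma) for 5-day HFD minus chow, 14-day HFD minus chow and 14-day HFD minus 5-day HFD. Points right of 0 are higher in the first-named group; enzymes lie mostly to the right in the first 2 panels and around 0 in the third.

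Among the sensors, Srebf2 itself read 10.01, 10.05, 10.12 and 9.76 in 5-day arrays 1 to 4, 9.75, 10.07, 9.90 and 10.31 in 14-day arrays 1 to 4 and 9.93, 10.02, 9.97 and 10.13 in chow arrays 1 to 4. The 3 groups overlap, and the differences were −0.028 ± 0.12 at 5 days and −0.0053 ± 0.12 at 14 days. Scap ranged from 10.74 to 11.01 at 5 days and 10.55 to 11.64 at 14 days, against 10.45 to 10.71 on chow; all 5-day arrays were above chow (0.24 ± 0.20), and 14-day array 4 stood far above the rest. Insig2, the second Insig protein, which is not driven by SREBP2 in the same way, read 11.15, 11.11, 10.82 and 11.28 in 5-day arrays 1 to 4, 11.62, 11.32, 11.49 and 10.80 in 14-day arrays 1 to 4 and 11.19, 11.38, 11.44 and 11.22 in chow arrays 1 to 4. It overlapped chow at both times, at −0.22 ± 0.16 and −0.0015 ± 0.16.

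Within arrays, Insig1 minus Insig2 averaged 0.00025 ± 0.21 at 5 days, −0.34 ± 0.24 at 14 days and −0.72 ± 0.28 on chow (SD, n = 4 each). It was higher in all 5-day arrays than in any chow array. This pair was chosen with the 5-day difference of Insig1 known, so its values are a description and no test is given. The pair Nr1h3 and Nr1h2 could not be compared without a value for Nr1h2.

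Inside the cell, Npc2 picks up cholesterol in the lysosome and hands it to the membrane protein Npc1; Npc2 is also known as a major secretory protein of the epididymis. Npc2 read 14.65, 14.61, 14.65 and 14.46 in 5-day arrays 1 to 4, 14.32, 14.26, 14.30 and 14.94 in 14-day arrays 1 to 4 and 14.27, 14.28, 14.22 and 14.24 in chow arrays 1 to 4. All 5-day arrays were above chow (0.34 ± 0.13), and at 14 days only array 4 stood clear of chow (0.20 ± 0.13). At 5 days limma called Npc2 without 14-day array 4 (adjusted p = 0.0334). In 5-day array 4 and in 14-day arrays 1 to 3, which lack epididymal transcripts, the differences from chow were 0.21 and 0.04. Liver and endothelium marker means were highest in 5-day array 4. Npc1 ranged from 9.69 to 10.19 and 9.59 to 10.11 at 5 and 14 days, against 9.84 to 10.08 on chow, with differences of −0.094 ± 0.13 and −0.015 ± 0.13. The cytosolic carrier Stard4 ranged from 9.40 to 9.54 and 8.92 to 10.51, against 8.85 to 9.60 on chow; its highest signal, 10.51, was in 14-day array 4.

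At 5 days the 3 efflux genes, Abca1, Abcg1 and Nr1h3, averaged below chow, unlike most enzymes, but the arrays differed. The mean of the 3 was below every chow array in 5-day arrays 1 to 3, which hold epididymal transcripts. In 5-day array 4, without these transcripts, that mean was 11.87, above every chow array. This array had the highest liver and endothelium marker means of all, 13.09 and 11.65, and their part was not tested. Over the alternative settings the 5-day differences took both signs. They ran over −0.207 to 0.073 for Abca1, −0.3018 to 0.1245 for Abcg1 and −0.2103 to 0.1787 for Nr1h3. Abca1, which loads cholesterol onto apolipoproteins, read 13.45, 13.41, 13.51 and 13.70 in 5-day arrays 1 to 4, 13.63, 13.72, 13.50 and 13.27 in 14-day arrays 1 to 4 and 13.57, 13.60, 13.57 and 13.77 in chow arrays 1 to 4. Differences were −0.11 ± 0.098 at 5 days and −0.10 ± 0.098 at 14 days; its 2 dimmer probe sets stood at −0.24 and −0.27 and at −0.30 and −0.38. Abcg1, which exports to lipoprotein particles, read 10.83, 10.96, 11.06 and 11.35 in 5-day arrays 1 to 4, 11.43, 11.60, 11.27 and 11.13 in 14-day arrays 1 to 4 and 11.16, 11.23, 11.28 and 11.24 in chow arrays 1 to 4. In 5-day arrays 1 to 3 it was below every chow array and in array 4 above them, and 14-day arrays 1 and 2 were the highest of all 12. Abcg1 differed by −0.18 ± 0.12 at 5 days, 0.13 ± 0.12 at 14 days, and 0.31 ± 0.12 between 14 and 5 days, the smallest p of that comparison among the 28 (limma adjusted p = 0.999).

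Nr1h3, the LXR abundant in fat and macrophages, read 10.20, 10.30, 10.18 and 10.56 in 5-day arrays 1 to 4, 10.56, 10.36, 10.46 and 9.66 in 14-day arrays 1 to 4 and 10.35, 10.42, 10.60 and 10.37 in chow arrays 1 to 4. Its lowest signal was in 14-day array 4, the array with the lowest macrophage markers (9.82), and the differences were −0.13 ± 0.17 and −0.18 ± 0.17; without that array the 14-day difference of Nr1h3 was 0.021. Within arrays, Abca1 minus Abcg1 was lower at 14 days than on chow, 2.17 ± 0.05 against 2.40 ± 0.10, and than at 5 days, 2.47 ± 0.11 (SD, n = 4 each). Each of these comparisons had an exact two-sided permutation p = 0.0286, the smallest that 4 against 4 allow, and p = 0.0571 after Benjamini-Hochberg adjustment over 6 pair tests, which included those of Insig1 minus Insig2. The genes of this report were chosen with earlier results of these data known, so these p values too are a description. With the mean of all probe sets of each gene the Abca1 minus Abcg1 difference was −0.38 at 14 days against chow (exact permutation adjusted p = 0.0857) and −0.32 against 5 days (exact permutation adjusted p = 0.206). At 5 days the difference from chow was 0.068 (exact p = 0.4).

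**Figure D4:**
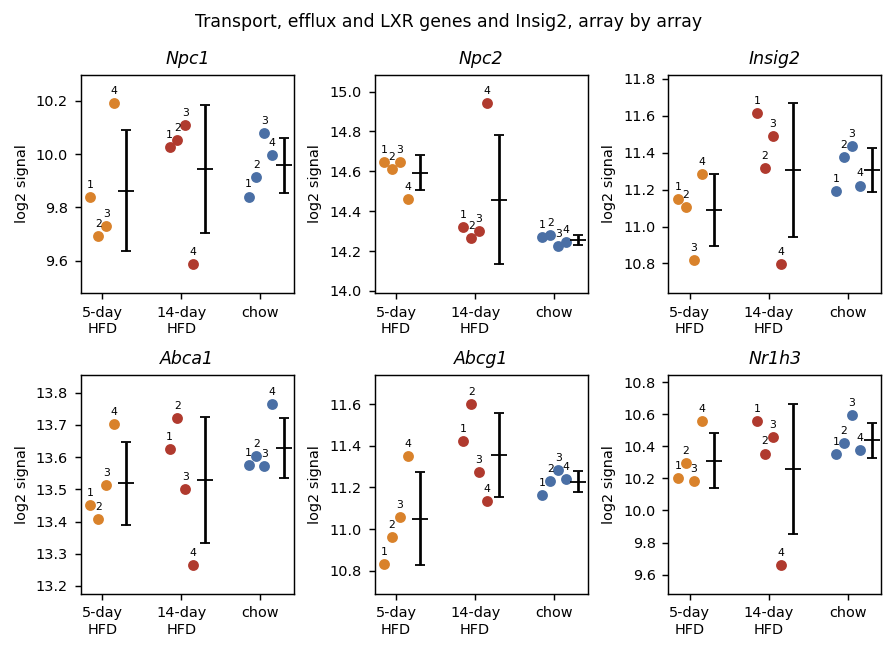
Log2 signal of the transport genes Npc1 and Npc2, of Insig2 and of Abca1, Abcg1 and Nr1h3 in 5-day HFD, 14-day HFD and chow arrays. Points are arrays numbered by replicate, with mean ± SD (n = 4) beside them, and the vertical axes do not start at 0. In 14-day array 4 Npc2 is the highest of its group and the other 5 genes the lowest.

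Between 14 and 5 days, 18 of the 28 were higher, with a median over the enzymes of 0.026, while 54.6% of all genes were higher. In 0 of the 28 did the groups separate, against 0.956% of all genes. Apart from Abcg1 the smallest p values belonged to Insig2 (0.22 ± 0.16), Sc5d (0.15 ± 0.13), Cyp51 (−0.15 ± 0.14) and Tm7sf2 (−0.40 ± 0.36), each with an adjusted p of 0.999 by limma. Insig1 differed by −0.13 ± 0.13 and Hmgcs1 by 0.024 ± 0.16. The SD was larger at 14 than at 5 days in 23 of the 28, all but Hmgcs1, Ggps1, Fdft1, Hsd17b7 and Abcg1, with medians of 0.32 and 0.15. For Tm7sf2 it was 0.94 at 14 days and 0.16 at 5 days. How many of all genes had a larger SD at 14 days was not counted, so the wider spread cannot be called particular to these genes. The 14 against 5 day difference of Tm7sf2 was −0.082 without 14-day array 2 and −0.82 without 14-day array 4, and that of Insig2 ran over 0.11 to 0.38 as 14-day arrays were left out.

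Arrays with epididymal transcripts were set against the others within each diet time. In 6 of the 28 (21.4%), the arrays with epididymal transcripts were above every other array of the same diet time, both at 5 and at 14 days: Fdps, Sqle, Tm7sf2, Msmo1, Srebf2 and Npc2. This held for 13.2% of all genes. The reverse order held for 11 (39.3%), against 22% of all genes: Hmgcs1, Pmvk, Ggps1, Ebp, Sc5d, Insig1, Insig2, Npc1, Abca1, Abcg1 and Nr1h3. The remaining 11 followed neither order. Without these 4 arrays, 25 of 28 genes were above chow at 5 days, from 1 array, and 25 at 14 days, and the enzyme medians were 0.20 and 0.27. The share of all genes above chow without these arrays was not counted. The 1 array left at 5 days, array 4, had the highest liver marker mean of all arrays, 13.09.

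**Figure D5:**
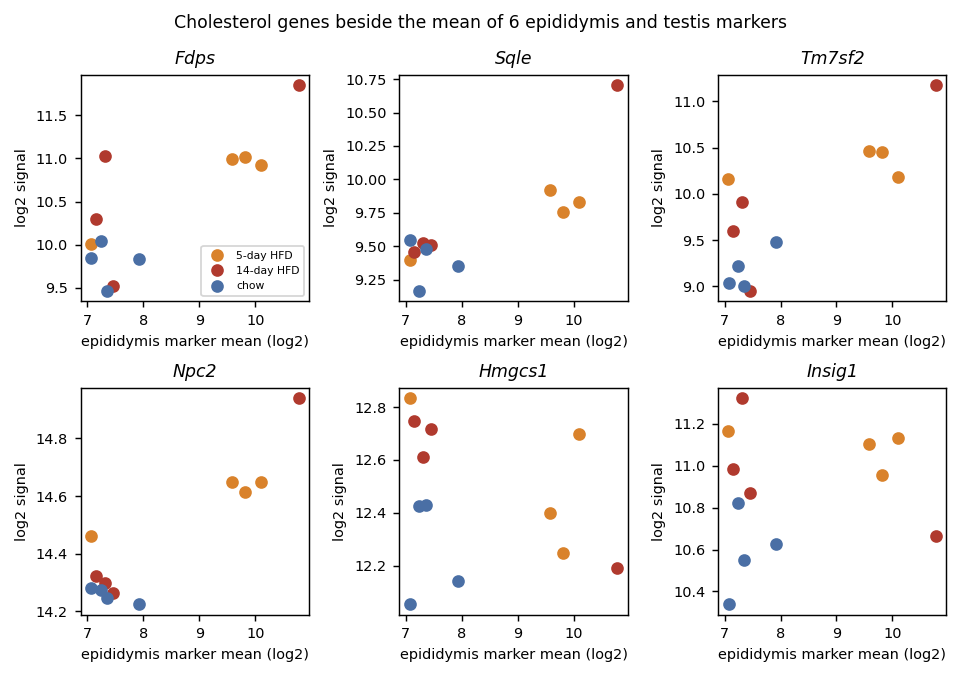
Log2 signal of 6 genes in each array (vertical) beside the mean of 6 epididymis and testis markers in the same array (horizontal, log2), coloured by diet group. Fdps, Sqle, Tm7sf2 and Npc2 are highest in 14-day array 4 at the right, where Insig1 and Hmgcs1 are the lowest of their group.

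Covariation was read for 4 pairs over the 12 arrays after subtracting group means, so the deviations are fewer than 12 in freedom. The permutations shuffled all 12 as if they were free and equal in spread between groups, so the p values can be too small. How often other pairs of genes deviate together this closely was not counted. Abca1 and Abcg1 deviated together, with r = 0.85 (permutation p = 0.00037, adjusted over 4 pairs 0.00074) and rho = 0.86 (permutation p = 0.00067, adjusted 0.00268). Npc1 and Npc2 deviated in opposite ways, with r = −0.84 (permutation p = 0.00033, adjusted 0.00074) and rho = −0.82 (permutation p = 0.00208, adjusted 0.00416). Without the 2 arrays farthest from the median, r was 0.76 and −0.78, and over the 7 chow and 14-day arrays without epididymal transcripts it was 0.68 and −0.68. With the mean of all probe sets of each gene in place of the brightest, Abca1 with Abcg1 gave r = 0.24 (permutation adjusted p = 0.451). Over the 7, r depended on the setting. Npc1 with Npc2 gave −0.36 after centring arrays on their medians, −0.93 after quantile normalization and −0.38 with the mean of probe sets. For Abca1 with Abcg1 these were 0.60, 0.82 and −0.014. Insig1 followed Hmgcs1 with r = 0.60 (permutation p = 0.0405, adjusted 0.0405) and rho = 0.62 (permutation p = 0.0368, adjusted 0.0491), with r = 0.58 without 2 arrays and 0.29 over the 7. Insig1 against Sqle gave r = −0.66 (permutation p = 0.0208, adjusted 0.0277) and rho = −0.54 (permutation p = 0.0738, adjusted 0.0738); r without 2 arrays was −0.42, and it was −0.62 over the 7. After quantile normalization the adjusted p of r was 0.108 for Insig1 with Hmgcs1 and 0.0561 for Insig1 with Sqle (permutation).

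Of the other genes of the pathway limma called 0 of 41 in each comparison, and at an unadjusted p under 0.05 there were 2 higher and 1 lower at 5 days, 1 higher at 14 days and 0 between 14 and 5 days. Of all genes, 4.24% were higher and 5.39% lower at 5 days, 3.02% and 3.96% at 14 days, and 1.59% and 0.846% between 14 and 5 days. Of 13 measured SREBP pathway and sterol-responsive genes 6 were above chow at 5 days and 6 at 14 days, with medians of −0.00025 and −0.02. Above chow were 49.2% of all genes at 5 days and 53.8% at 14 days. Aacs, which activates acetoacetate, differed by −0.26 ± 0.12 at 5 days and −0.25 ± 0.12 at 14 days, and by −0.16 at 14 days without 14-day array 4, the array of highest epididymis markers. Srebf1, the SREBP of fatty acid synthesis, differed by −0.21 ± 0.10 at 5 days and 0.19 ± 0.10 between 14 and 5 days (0.12 without 5-day array 1). Erlin2, which takes part in the sterol-dependent breakdown of endoplasmic reticulum proteins, was at 0.31 ± 0.17 and 0.32 ± 0.17, and at 0.13 at 14 days without array 4. Tmem97, a sterol-responsive membrane protein, was at 0.15 ± 0.073 at 14 days. Mbtps2, a protease that cuts SREBP, differed by 0.14 ± 0.10 between 14 and 5 days, and by 0.22 without 14-day array 4.

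Of 16 uptake, transport and storage genes 10 were above chow at each time, with medians of 0.077 and 0.042. Among all genes 49.2% were above chow at 5 days and 53.8% at 14 days. The lipoprotein receptors Scarb1 and Lrp1 differed by 0.27 ± 0.14 and −0.20 ± 0.13 at 5 days and by 0.065 ± 0.14 and −0.28 ± 0.13 at 14 days; Scarb1 was at 0.10 at 5 days without 5-day array 4, and Lrp1 at −0.14 at 14 days without 14-day array 4. Mylip, a ligase that marks lipoprotein receptors for breakdown, differed by −0.17 ± 0.20 between 14 and 5 days, and by −0.29 to −0.012 with each array left out. Osbpl2, an oxysterol-binding protein relative, differed by 0.28 ± 0.17 from chow at 14 days and by 0.068 without 14-day array 4. Nceh1, a cholesteryl ester hydrolase, was at −0.31 ± 0.15 at 5 days and 0.21 ± 0.15 between 14 and 5 days (0.10 without 14-day array 4). Gramd1c, of a family that carries sterol from the plasma membrane, was at 0.34 ± 0.20 and 0.39 ± 0.20 from chow, and at 0.14 at 14 days without array 4.

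Of 12 other LXR target and oxysterol genes 8 were above chow at 5 days and 6 at 14 days, with medians of 0.048 and −0.0033. Among all genes 49.2% and 53.8% were above chow at these times. Lpcat3, an LXR target that remodels phospholipids, read 11.74, 11.67, 11.73 and 11.88 in 5-day arrays 1 to 4, 11.75, 11.56, 11.94 and 11.78 in 14-day arrays 1 to 4 and 11.41, 11.46, 11.46 and 11.50 in chow arrays 1 to 4. Every array of both HFD groups was above every chow array, and the differences were 0.29 ± 0.076 and 0.30 ± 0.076 (limma adjusted p = 0.391 and 0.575). Wholly above chow were 5.34% of all genes at 5 days and 2% at 14 days. Ch25h, which makes 25-hydroxycholesterol, read 9.07, 9.22, 9.07 and 6.57 in 5-day arrays 1 to 4, 6.56, 6.72, 6.78 and 10.07 in 14-day arrays 1 to 4 and 6.83, 6.60, 6.78 and 6.85 in chow arrays 1 to 4. It was at 9.07 to 10.07 in the 4 HFD arrays with epididymal transcripts and between 6.56 and 6.85 in the other 8. Cyp46a1, a cholesterol 24-hydroxylase, differed by −0.12 ± 0.061 at 5 days and −0.13 ± 0.061 at 14 days from chow, and the transporter Abca9 by −0.38 ± 0.20 at 14 days, or −0.11 without 14-day array 4. Between 14 and 5 days Abca9 differed by −0.28 ± 0.20 and Rxra, the partner of the LXRs, by −0.19 ± 0.15; without 14-day array 4 these were −0.014 and −0.022.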

How the data were processed

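Adipose RNA from 12 samples was hybridised to Affymetrix arrays after T7-oligo(dT) amplification and biotin labelling, per the labels' protocols. The log2 probe set values were deposited by the authors; their summarisation and normalization are not given in the sources used here. Medians of the arrays ran over 8.09 to 8.14, and arrays correlated with each other at 0.956 to 0.997.

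Of 45098 probe sets, 61 controls were left out. The platform annotation gave 1 symbol for 34945, several for 932 and none for 9160; 34741 symbols matched RefSeq, and 0 changed. The probe set of highest mean stood for each of 18193 genes, and all 28 measured genes lay above 7.64, the 40th percentile of all probe set means. Of the 28, 9 have 1 probe set.

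Groups of 4 were compared in limma 3.58.1 (R 4.3.3; lmFit, eBayes with trend) with all 12 arrays in the fit and Benjamini-Hochberg adjustment over all genes. Pair differences used exact two-sided permutation tests and covariation 100000 resamples, two-sided. The fit was tested on simulated data.

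The genes and lists were chosen with earlier results of these data known. Every array was printed for the 8 genes of smallest p in each comparison and for Insig1, Hmgcs1, Sqle, Srebf2, Abca1, Abcg1, Nr1h3 and Soat1 where measured; up to 3 genes of smallest p were named from each other list. Ch25h and Lpcat3 were also given by array, chosen after their values were seen. Alternatives were other scaling, an intensity filter, the mean of probe sets, eBayes without trend, array weights, fits of 2 groups, a replicate block, marker covariates and leaving out each array; leaving out the 4 HFD arrays with Spink8, an epididymal marker, above 10, and leaving out each array for the other pathway genes, were chosen after seeing the data.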

Additional observations from a re-analysis of the deposited data

Results flagged for a closer look

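In 9 of 84 groups of 4 arrays, 1 array stood far from the others by Dixon's 95% limit. Chance flags about 1 group in 20 when groups are independent. These groups are not, because all genes were read from the same arrays. How often groups of all genes are flagged was not counted, so the count cannot be called particular to these genes. Values are log2 signals, and no explanation was tested.

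In 14-day array 4, Sqle was 10.71 (other 14-day arrays 9.46 to 9.53), Scap 11.64 (10.55 to 10.72), Npc2 14.94 (14.26 to 14.32) and Npc1 9.59 (10.03 to 10.11). That array also had the highest epididymis and testis marker mean, 10.78. At 5 days, Fdps was 10.01 in array 4 (others 10.92 to 11.02), the array of that group without epididymal transcripts. Fdft1 was 11.19 in 5-day array 3 (others 10.87 to 10.92), and Sc5d 11.38 in 5-day array 2 (others 11.53 to 11.56). On chow, Sc5d was 11.64 in array 1 (others 11.38 to 11.42) and Abca1 13.77 in array 4 (others 13.57 to 13.60).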

How the results depend on the processing

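How many genes limma called depended on how array spread was modelled. With array weights 1845 genes and 7 of the 28 were called at 5 days against chow, 1843 and 7 at 14 days, and 1246 and 5 between 14 and 5 days. With only the 2 groups compared, 126 genes and 3 of the 28 (Tm7sf2, Msmo1 and Npc2) were called at 5 days. The epididymis marker covariate gave 275 genes at 5 days and 19 between 14 and 5 days, with 0 of the 28, and leaving out the 4 arrays with Spink8 above 10 gave 19 at 5 days, where the 1 array left is assumed to vary like the other groups. Leaving out each array in turn gave 0 to 90 genes and 0 to 2 of the 28 at 5 days (90 genes, 2 of the 28 among them, without 14-day array 4, and 2 genes, 0 of the 28, without 14-day array 2), 0 to 20 genes at 14 days (20 without 14-day array 2, 2 without 14-day array 4) and 0 between 14 and 5 days.

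With each array left out, 20 to 22, 21 to 25 and 14 to 19 of the 28 were higher in the 3 comparisons, and enzyme medians ran over 0.15 to 0.24, 0.12 to 0.27 and −0.03 to 0.07. With 3 tissue covariates Fdps was −0.046 and Msmo1 −0.077 at 5 days, and Abca1 minus Abcg1 at 5 days was −0.058 with the mean of probe sets; the cause was not tested. Over all settings the sign never turned for 14, 17 and 8 of the 28 in the 3 comparisons. Insig1 with Hmgcs1 gave r = 0.49 (permutation adjusted p = 0.108) after quantile normalization and 0.53 (0.102) with the mean of probe sets, Insig1 with Sqle −0.61 (0.0561) after quantile normalization, and Abca1 with Abcg1 0.24 (0.451) with the mean of probe sets. Replicate numbers did not pair the samples, with correlations of −0.72 to 0.41; a replicate block called 0 genes and left 21, 23 and 18 of the 28 higher. Signal over background was not analysed here.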
